A study of Capra hircus with 12 samples.

Results

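The miR-140 and miR-455 families were examined through the annual cycle of the secondary hair follicle (SHF), the small follicle that grows the cashmere fibre. Members were taken by name, as every listed goat miRNA of the miR-140 or miR-455 precursor, which gave 4 mature arms (chi-miR-140-5p, chi-miR-140-3p, chi-miR-455-5p and chi-miR-455-3p) of the 376 miRNAs in the count tables. All 4 passed the filter on low counts (more than 5 CPM in at least 2 libraries), as did 300 miRNAs in all. The 12 small RNA libraries were made from SHFs dissected from skin that the labels place over the scapula and the study's methods on the back of Liaoning cashmere goats aged 1.5 years, and each of 6 months gave 1 female and 1 male library. February and March stood for telogen (4 libraries), May for early anagen (2 libraries), September for mid-anagen (2 libraries), and November and December for catagen (4 libraries). The animals received no treatment named in the labels, so season is the only condition besides sex, and month and hair cycle phase cannot be told apart. The study took 3 male and 3 female goats at each time point. How they were combined into libraries is not given in the sources used here, so p-values measure the spread between these libraries.

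Each miRNA precursor is a hairpin whose stem is cut out as a duplex. One strand, the 5p or the 3p arm, is usually kept by an Argonaute protein to guide the repression of mRNAs, while the other is mostly degraded, and the balance between the arms can differ between tissues. Both precursors are best known from cartilage. The miR-140 gene lies within WWP2, which encodes a ubiquitin ligase, and the miR-455 gene within COL27A1, which encodes a fibrillar collagen. In chondrocytes the transcription factor SOX9 drives both loci, and in the hair follicle SOX9 marks the outer root sheath and the stem cells of the bulge. In the RefSeq annotation of the goat assembly ARS1.2, the entries named for miR-140 and miR-455 lay inside the spans of WWP2 and COL27A1, with 1 entry each. These libraries hold small RNA only, so SOX9, WWP2 and COL27A1 transcripts were not measured.

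Library totals ran from 3135292 to 5788032 miRNA counts, with a median of 4469050.5, and the floor of 3 counts corresponded to a TPM of 0.518 to 0.957. The reads carry no molecular identifiers, so intervals on shares cover counting error only. The deposited TPM is the count scaled by the library total. Differences were tested on counts with TMM normalization, which also corrects for the make-up of a library, and its factors ranged from 0.813 in catagen to 1.29 in May. Against library totals, TMM moved the median miRNA by more than 0.1 on the log2 scale in 5 of the 6 comparisons between phases. The median log2 change from May to September was 0.07 with TMM and -0.46 with totals, which bears on every level below. Ratios between the arms of 1 precursor do not depend on this scaling.

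Marker miRNAs of several cell types were summed in each library. The sums cannot test the SHF label, since no epidermis or primary follicle library was sequenced beside them. The 9 arms of miR-199, miR-214, miR-143 and miR-145, listed as mesenchymal, summed to between 118300 and 148900 TPM per library. Most of this sum was miR-143-3p (mean 89980 of 134500 TPM), which the study's in situ hybridization placed in the hair matrix and not the bulge. The 6 epithelial arms of miR-203, the miR-200 group, miR-141 and miR-429 summed to between 56740 and 96690 TPM. Most of this sum was miR-203 (mean 63230 of 76200 TPM), which the study's RT-qPCR found lower in SHFs than in epidermis or primary follicles. The 2 endothelial arms of miR-126 summed to between 8819 and 12700 TPM. Skeletal muscle markers (6 arms) reached 1902 to 3614 TPM, leukocyte markers (4 arms) 393 to 664, and erythrocyte markers (2 arms of miR-451 and miR-144) 5.41 to 115. The libraries thus held the markers of both lists, but the mesenchymal sum does not measure mesenchymal cells alone. In such bulk samples, fewer cells of a type and less RNA per cell cannot be told apart.

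The 4 arms were of unequal abundance. Over the 12 libraries, chi-miR-140-3p averaged 852 ± 117 TPM (SD, n = 12) and ranked 64 of 376 miRNAs. The other 3 arms were lower, at 116 ± 50.6 TPM for chi-miR-140-5p, 99.5 ± 42.8 for chi-miR-455-5p and 69.2 ± 11.9 for chi-miR-455-3p, with ranks of 118, 122 and 139. The 3p arm therefore dominated miR-140 in every library, whereas the 5p arm led miR-455 in 9 of 12. On TMM-normalized CPM the coefficient of variation was 34.7% for chi-miR-455-5p and 32.6% for chi-miR-140-5p, against a median of 29.4% over the 300 tested miRNAs. It was 25.1% for chi-miR-140-3p and 13% for chi-miR-455-3p, and only 6% of the tested miRNAs varied less than the latter.

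**Figure D1:**
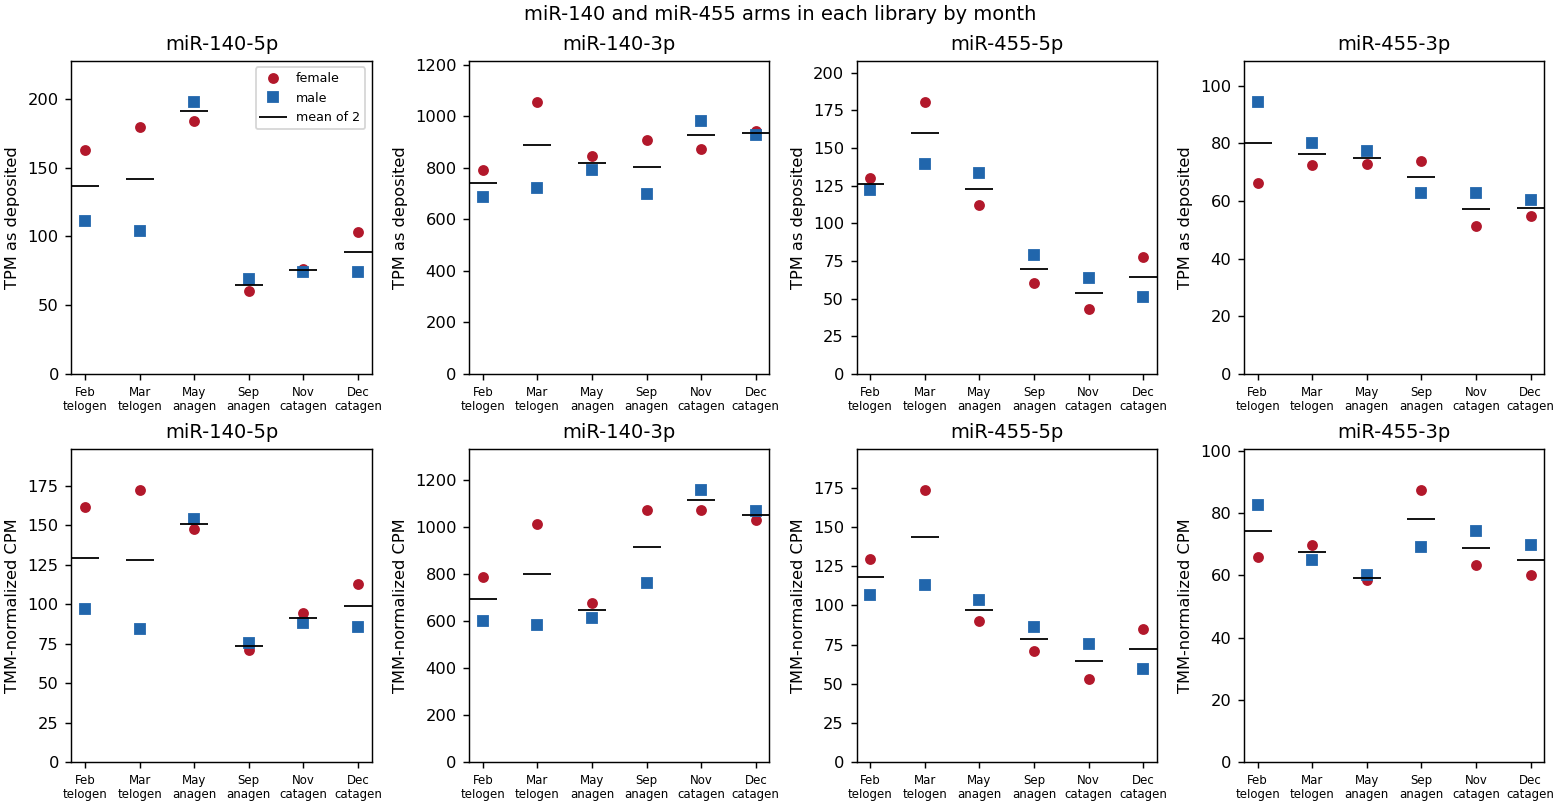
Level of each arm in the 12 libraries by month, as deposited TPM (top) and as TMM-normalized CPM (bottom), with circles for female and squares for male libraries and a line at the mean of both. Both 5p arms are lower from September to December than in most libraries of February to May, while miR-140-3p rises towards catagen on the TMM scale (catagen mean 1084 CPM, May mean 647) and is nearly level in TPM.

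chi-miR-140-5p, the arm best known from chondrocytes, was high from February to May and low afterwards. Its TPM was 163 (female) and 111 (male) in February, 179 and 104 in March, and 184 and 198 in May. In September it was 60.4 (female) and 69.0 (male), in November 76.7 and 74.5, and in December 103 and 73.9. In TPM both May libraries lay above every library of the other months. On the TMM scale the female February and March libraries (162 and 172 CPM) lay above both May libraries (147 and 154 CPM). The male telogen libraries were closer to the catagen range than the female ones were. The 6 libraries of February to May (103.8 to 197.8 TPM) barely cleared those of September to December (60.4 to 103.4 TPM), and on the TMM scale they overlapped (84.3 to 172 CPM against 71.2 to 113).

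From May to September, chi-miR-140-5p fell 2.05-fold (log2 fold change -1.04, SE 0.31, 95% interval -1.71 to -0.37, adjusted p = 0.0211 by edgeR's quasi-likelihood test). It was the single call among 24 comparisons of the 4 arms (6 pairs of phases each) at an adjusted p under 0.05 and at least 2-fold. In this pair of phases 18.3% of all tested miRNAs were called, so 1 arm of 4 stood near the background. The May and September libraries of chi-miR-140-5p did not overlap on either scale, but on the TMM scale this held for all 4 arms. The share of all tested miRNAs apart in this way was not counted. The call was lost without the male May library (-1.03, adjusted p = 0.0779), the female September library (-0.99, adjusted p = 0.112) or the male September library (-1.08, adjusted p = 0.0775).

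The other contrasts of chi-miR-140-5p were smaller. Between telogen and September it fell by 0.81 on the log2 scale (95% interval -1.41 to -0.22, adjusted p = 0.0462), under the 2-fold limit. This no longer passed in 7 of the 12 fits without 1 library (adjusted p up to 0.227, without the female September library), while without the male March library it became -1.05 (adjusted p = 0.00556). Fitted on only those groups, the fall from telogen to September did not pass (-0.82, adjusted p = 0.141). It passed under the other settings of scaling, filter and test. With no minimum fold, 25.3% of miRNAs passed between these phases. From May to catagen the change was -0.66 (adjusted p = 0.0628), close to the threshold, where 37% of miRNAs passed. With sex as a block it was -0.68 (adjusted p = 0.0284), and it also passed, under 2-fold, with RLE (adjusted p = 0.0493), DESeq2 (0.036), no filter (0.0415), a filter of 50 CPM (0.0111) or only those groups fitted (0.00168). It did not pass with the likelihood-ratio test (adjusted p = 0.0507). Of the fits without 1 library, it passed only without the female March (0.0239) or male March library (0.0072). The change was 0.44 from catagen to telogen (95% interval -0.03 to 0.91, adjusted p = 0.132) and 0.22 from telogen to May (adjusted p = 0.584). From catagen to telogen it passed, under 2-fold, with library totals (0.76, adjusted p = 0.0106) or a filter of 50 CPM (0.53, 0.0463). It also passed without the male March library (0.63, 0.0159), and in no other alternative fit. The order of group means on the TMM scale was May (151 ± 4.50 CPM, SD, n = 2), telogen (129 ± 44.6, n = 4), catagen (95.2 ± 12.4, n = 4) and September (73.4 ± 3.15, n = 2). In the main fit no neighbours in this order differed past the test.

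chi-miR-140-3p, the abundant arm, showed no such drop. Its TPM was 791 (female) and 689 (male) in February, 1056 and 722 in March, and 847 and 792 in May. It stood at 909.6 (female) and 697 (male) in September, 874 and 982 in November, and 944 and 926 in December. The libraries of February to May (689 to 1056 TPM) and of September to December (697 to 982 TPM) covered nearly the same range, and the female March library was the highest of all.

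On the TMM scale chi-miR-140-3p was highest in catagen, at 1084 ± 53.9 CPM (n = 4), against 919 ± 218 in September (n = 2), 747 ± 200.3 in telogen (n = 4) and 647 ± 44.4 in May (n = 2). It rose by 0.75 (log2) from May to catagen (SE 0.22, 95% interval 0.27 to 1.22, adjusted p = 0.0187) and fell by 0.54 from catagen to telogen (SE 0.17, 95% interval -0.92 to -0.16, adjusted p = 0.0322), both under 2-fold. In these pairs 37% and 35% of all tested miRNAs passed the adjusted p alone, and 16.7% and 10.7% were called at 2-fold. Scaled by library totals instead, the same 2 differences were 0.19 (adjusted p = 0.412) and -0.19 (adjusted p = 0.291). The second also did not pass with RLE (adjusted p = 0.0681), DESeq2 (0.0555) or no filter (0.0556), where the first did. Both passed with the filter of 50 CPM, the likelihood-ratio test, sex as a block or only those groups fitted. Leaving out 1 library ended the first with either May library left out (0.61, adjusted p = 0.115 without the female, and 0.67, adjusted p = 0.134 without the male one). It ended the second without the female November (-0.55, adjusted p = 0.0597), male November (-0.50, adjusted p = 0.0787), male February (-0.45, adjusted p = 0.0775) or male March library (-0.40, adjusted p = 0.0508). From May to September the difference of chi-miR-140-3p was 0.51 (adjusted p = 0.133), and from telogen to September 0.30 (adjusted p = 0.294).

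chi-miR-455-5p followed a course like that of chi-miR-140-5p but was highest in telogen. Its TPM was 130.3 (female) and 122 (male) in February, 181 and 139.6 in March, and 112 and 133 in May. In September it was 60.2 (female) and 78.8 (male), in November 43.1 and 63.9, and in December 78.0 and 51.4. Every library of February to May (112 to 181 TPM) lay above every library of September to December (43.1 to 78.8 TPM). The same held on the TMM scale (90.0 to 174 CPM against 53.0 to 86.4), where the libraries of these months were apart in 20% of the tested miRNAs.

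The contrast of chi-miR-455-5p with the smallest adjusted p was that of catagen and telogen. It was 1.91-fold higher in telogen (log2 fold change 0.94, SE 0.19, 95% interval 0.52 to 1.36, adjusted p = 0.00323), just short of the 2-fold limit. It reached 2-fold without the female December (1.04), male February (1.02) or male March library (1.03), and also with RLE normalization (1.03), DESeq2 (1.03) or library totals (1.27). From telogen to September it fell by 0.73 (95% interval -1.26 to -0.21, adjusted p = 0.042). This fall did not pass with no filter (adjusted p = 0.0511) or only those groups fitted (0.0821). It passed under the other settings of scaling, filter and test. This contrast no longer passed in 5 of the 12 fits without 1 library (adjusted p up to 0.272, without the female September library). In the main fit the differences from telogen to May (-0.43, adjusted p = 0.249), May to September (-0.30, adjusted p = 0.417) and May to catagen (-0.50, adjusted p = 0.101) did not pass. May to catagen passed with a filter of 50 CPM (adjusted p = 0.0288), only those groups fitted (0.018) or library totals (0.00392). It did not with RLE (0.0811), DESeq2 (0.0726), no filter (0.0764), the likelihood-ratio test (0.108) or sex as a block (0.104). May to September passed with library totals alone of these (0.0367).

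On the TMM scale chi-miR-455-3p was the steadiest of the 4 arms. In TPM its coefficient of variation was 17.2%, above the 13.8% of chi-miR-140-3p. The TPM of chi-miR-455-3p ran from 66.2 (female) to 94.4 (male) in February and from 72.6 to 80.1 in March, and it was 73.0 and 77.2 in May. It was 74.0 (female) and 62.9 (male) in September, 51.5 and 62.9 in November, and 54.9 and 60.4 in December. The phases that were apart depended on the scale. On the TMM scale May (58.5 to 60.0 CPM) lay below telogen (65.0 to 82.5) and September (69.0 to 87.3). In TPM catagen (51.5 to 62.87) lay below telogen and May, and below September only by 62.87 against 62.93. How many of all tested miRNAs were apart in these pairs was not counted. Group means on the TMM scale lay between 59.2 ± 1.08 CPM (May, n = 2) and 78.2 ± 13.0 (September, n = 2). None of its 6 contrasts passed by edgeR's test. From catagen to telogen the log2 difference was 0.08, and its 95% interval of -0.22 to 0.38 left out a 2-fold change either way. With library totals the same difference was 0.45 (adjusted p = 0.0337), so a telogen level above catagen was seen on the TPM scale (78.3 ± 12.1 against 57.4 ± 5.15 TPM, n = 4 each).

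**Figure D2:**
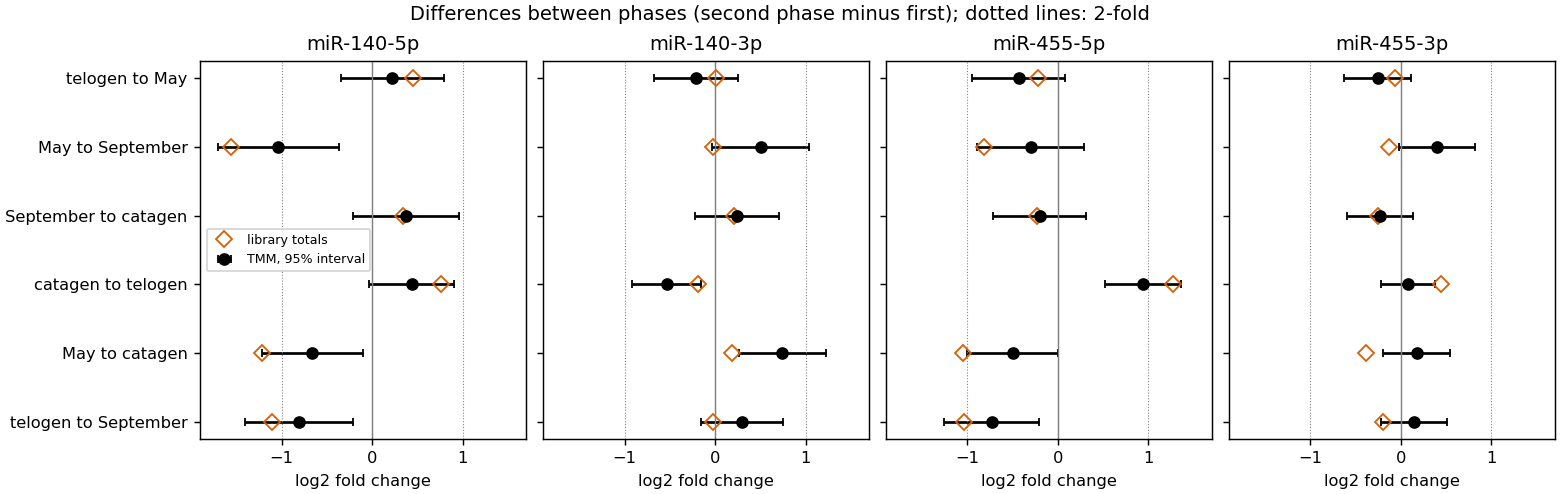
Log2 fold change of each arm between phases, later-named phase minus first, with TMM normalization (filled circles, bars the 95% interval) and with library totals (hollow diamonds, no interval drawn). Only miR-140-5p from May to September was called with TMM, and the totals moved miR-140-3p from 0.51 to -0.03 in the same comparison.

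Across the 4 phases together, the quasi-likelihood F test passed for chi-miR-455-5p (F = 8.58, adjusted p = 0.00974), chi-miR-140-3p (F = 5.30, adjusted p = 0.0337) and chi-miR-140-5p (F = 5.11, adjusted p = 0.0371), but not for chi-miR-455-3p (F = 1.52, adjusted p = 0.314). This was 3 of 4 arms beside 47.3% of all tested miRNAs. Leaving out 1 library at a time, the test was lost in 0 of 12 fits for chi-miR-455-5p, 5 for chi-miR-140-3p (adjusted p up to 0.0944, without the male May library) and 6 for chi-miR-140-5p (up to 0.106, without the female September library). With 6 month groups, chi-miR-455-5p alone of the 4 arms passed (adjusted p = 0.0447, against 0.166, 0.128 and 0.592 for chi-miR-140-5p, chi-miR-140-3p and chi-miR-455-3p), beside 31.7% of all miRNAs. No arm was called between telogen and May, where 2.33% of miRNAs were called at 2-fold and 5.33% passed on the adjusted p. None was called between September and catagen, where 0% of miRNAs were called on either rule and 23 had an unadjusted p under 0.05. From May to September, 34% passed with no minimum fold, and from telogen to September 9.33% were called at 2-fold.

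The balance of the arms of miR-140 was then followed within each library. The 5p arm made up 17.0% (female) and 13.9% (male) of miR-140 counts in February, 14.5% and 12.6% in March, and 17.9% and 19.99% in May. The share was 6.22% (female; 95% Wilson interval 5.6% to 6.91%) and 9.01% (male) in September, 8.07% and 7.05% in November, and 9.86% and 7.39% in December. All 6 libraries of February to May (12.6% to 19.99%) lay above all 6 of September to December (6.22% to 9.86%). Put the other way, 4.00 to 6.96 counts of the 3p arm were found for each 5p count in the earlier months and 9.14 to 15.1 in the later ones. The arm ratios of these sets of months were also apart in 21 of the 82 precursors with both arms tested, or 25.6%.

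**Figure D3:**
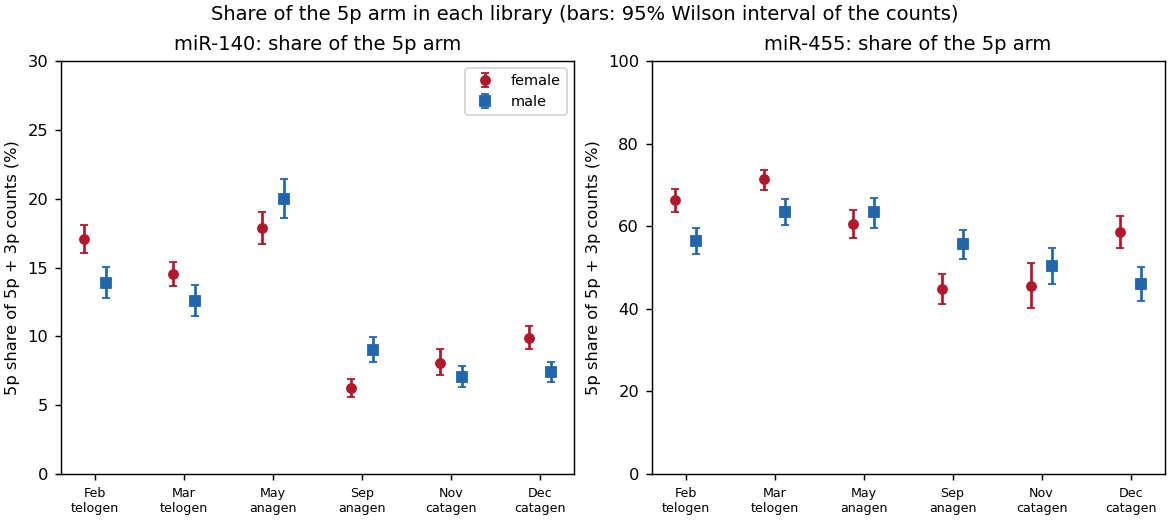
Share of the 5p arm in the counts of both arms, in percent, for miR-140 (left, axis to 30%) and miR-455 (right, axis to 100%) in each library by month. Bars are 95% Wilson intervals, and the 6 libraries of February to May sit above the 6 of September to December for miR-140 (lowest 12.6%, highest 9.86%) but overlap for miR-455.

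The log2 ratio of the 5p to the 3p arm of miR-140 differed among the phases (limma on 82 precursors, F = 14.5, adjusted p = 0.000198). It fell by 1.52 from May to September (95% interval -2.17 to -0.87, adjusted p = 0.000557) and was 0.95 higher in telogen than in catagen (95% interval 0.49 to 1.41, adjusted p = 0.00209). It was lower by 1.41 in catagen than in May (95% interval -1.97 to -0.85, adjusted p = 0.000274). These 3 contrasts passed in every fit without 1 library. From telogen to September the ratio fell by 1.06 (adjusted p = 0.00487), which without the female September library became -0.77 (adjusted p = 0.118). The ratio was 0.47 higher in May than in telogen (95% interval -0.10 to 1.03, adjusted p = 0.225), and between September and catagen it differed by 0.11 (adjusted p = 0.965). Mean 5p shares were 18.9% ± 1.51 in May (n = 2), 14.5% ± 1.88 in telogen (n = 4), 8.09% ± 1.25 in catagen (n = 4) and 7.62% ± 1.97 in September (n = 2).

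miR-455 used its arms more evenly. Its 5p share was 66.3% (female) and 56.4% (male) in February, 71.3% and 63.6% in March, and 60.6% and 63.3% in May. It was 44.8% (female) and 55.6% (male) in September, 45.6% and 50.4% in November, and 58.7% and 46.0% in December. The 5p arm thus held most counts in all 6 libraries of February to May, and the 3p arm led in 3 of the 6 later ones. The ratio differed among phases (F = 5.25, adjusted p = 0.0162) and was 0.85 higher in telogen than in catagen (95% interval 0.34 to 1.37, adjusted p = 0.0098). From telogen to September it fell by 0.85 (95% interval -1.49 to -0.22, adjusted p = 0.0337). That contrast was lost without the female September (-0.54, adjusted p = 0.343), female February (-0.82, adjusted p = 0.0535) or female March library (-0.70, adjusted p = 0.0899). From May the difference was -0.69 both to September (adjusted p = 0.127) and to catagen (adjusted p = 0.0718).

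A change of arm ratio was common in these libraries. Among the 4 phases it passed for 61% of the 82 precursors, of which miR-140 ranked 12 by F and miR-455 ranked 39. By pair it passed for 40.2% from May to September, 48.8% between catagen and telogen, 43.9% from May to catagen, 39% from telogen to September, 9.76% from telogen to May and 0% from September to catagen. The direction was mixed. From May to September, 23 precursors moved towards the 3p arm, as miR-140 did, and 10 towards the 5p arm. In the plane of both main contrasts, 41 precursors had more 5p in telogen than in catagen and less in September than in May, as both miR-140 and miR-455 did, 24 had the opposite and 17 had the same sign in both. The 3 precursors with a mean log2 ratio nearest that of miR-140 were miR-130a, miR-28 and miR-195. The ratio of miR-195 also moved, by 2.11 from catagen to telogen (adjusted p = 2.1e-05), whereas the phase test did not pass for miR-130a (adjusted p = 0.342) or miR-28 (adjusted p = 0.0701).

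**Figure D4:**
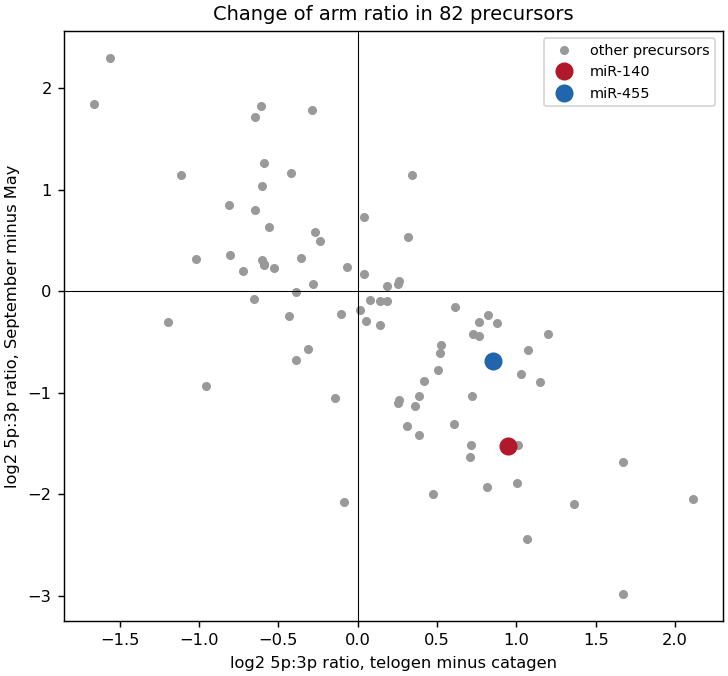
Difference of the log2 5p:3p ratio between catagen and telogen (x axis) and between May and September (y axis) for 82 precursors, each a point. miR-140 (0.95, -1.52) and miR-455 (0.85, -0.69) lie in the lower right part of the plot with 41 precursors in all.

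Since both host genes are linked to SOX9, the mature arms of miR-140 and miR-455 were set against each other. With both arms summed, miR-140 gave 3.69 to 4.88 counts for each miR-455 count in telogen (mean 4.30 ± 0.66, n = 4) and 7.88 to 10.05 in catagen (mean 8.80 ± 0.94, n = 4). The ratio was 5.56 (female) and 4.70 (male) in May, and 7.23 and 5.41 in September. The telogen and catagen libraries did not overlap, and the log2 ratio was lower by 1.04 in telogen (two-sided exact permutation test, p = 0.0286, the smallest that 4 against 4 libraries allow). Between these phases 35% of all tested miRNAs passed on edgeR's adjusted p, and how many other pairs of precursors were apart was not counted. In TPM, the summed miR-455 arms went from 196 to 253 in telogen to 94.6 to 133 in catagen, and the summed miR-140 arms from 799.7 to 1235 in telogen to 951 to 1056 in catagen. The summed mature arms therefore did not keep a fixed proportion between telogen and catagen. Precursor transcripts were not measured.

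**Figure D5:**
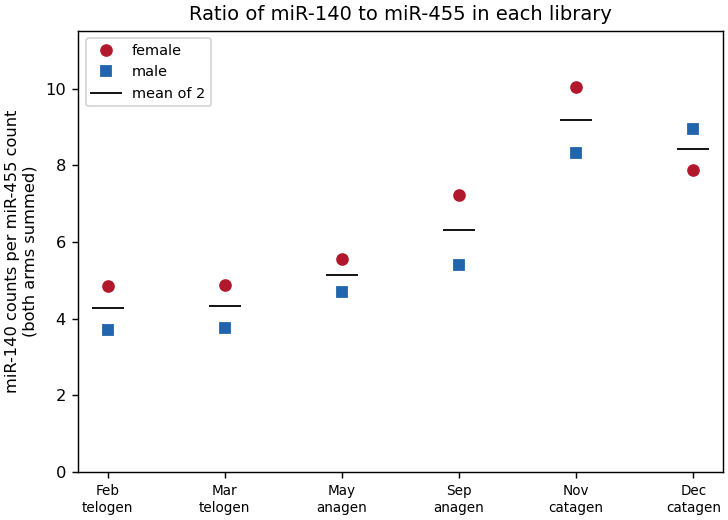
Counts of miR-140 for each count of miR-455, both arms summed, in the 12 libraries by month, with a line at the mean of both libraries. The telogen libraries lie between 3.69 and 4.88 and the catagen libraries between 7.88 and 10.05.

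Between the sexes, with month held as a term in the fit, no arm was called. The log2 difference, male minus female, was -0.36 for chi-miR-140-5p (higher in the female library in 4 of 6 months, adjusted p = 0.414), -0.27 for chi-miR-140-3p (4 of 6 months, adjusted p = 0.414), -0.08 for chi-miR-455-5p (3 of 6, adjusted p = 0.901) and 0.06 for chi-miR-455-3p (2 of 6, adjusted p = 0.901). Among all miRNAs 0% were called by edgeR's test, with 34 at an unadjusted p under 0.05. The telogen libraries of chi-miR-140-5p were apart by sex (female 163 and 179 TPM, male 111 and 104). So were those of chi-miR-140-3p (female 791 and 1056 TPM, male 689 and 722). In chi-miR-455-3p the male libraries were the higher ones (94.4 and 80.1 TPM, female 66.2 and 72.6). How many of all tested miRNAs were apart in this way was not counted. The log2 change from catagen to telogen differed by -0.62 (male minus female libraries) for chi-miR-140-5p (unadjusted p = 0.0329 by edgeR, adjusted p = 0.189) and by -0.68 for chi-miR-140-3p (unadjusted p = 0.0155, adjusted p = 0.129). Neither passed, and 1.33% of all miRNAs did. The arm ratio of miR-140 had no common direction by sex (male minus female -0.08 ± 0.39 on the log2 scale, n = 6 months).

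Of the other miRNAs with a known link to cartilage or to SOX9 as a target, 11 arms were tested, with changes in both directions. From May to September 1 rose and 1 fell at 2-fold, namely miR-30a-3p (1.32) and miR-193b-3p (-1.14), beside the 18.3% called among all miRNAs. Their median log2 change was 0.28 against 0.07 over all tested miRNAs. From catagen to telogen 0 of the 11 were called at 2-fold, beside 10.7% of all miRNAs. On the adjusted p alone 1 rose and 2 fell, beside 35%, and the median was 0.12 against 0.001. The most abundant arm, miR-199a-3p (14680 TPM), which is made by mesenchymal cells, fell by 0.85 from May to September (adjusted p = 0.00677) and was 0.55 higher in telogen than in catagen (adjusted p = 0.00873). Its partner miR-199a-5p (13380 TPM) fell by 0.79 from May to September (adjusted p = 0.0059). miR-30a-5p (13330 TPM) changed by 0.28 (adjusted p = 0.282), and miR-145-5p, a smooth muscle miRNA that targets SOX9 in chondrocytes, fell by 0.85 from catagen to telogen (adjusted p = 0.00613).

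Other miRNAs from introns of protein-coding genes were listed as 35 arms, of which 29 were tested. From May to September 5 rose and 1 fell at 2-fold, beside the 18.3% called among all miRNAs, and the median log2 change was 0.28 against 0.07. The 5 that rose were miR-151-3p (2.11), miR-335-3p (1.97), miR-378-3p (1.43), miR-218 (1.28) and miR-28-3p (1.01), and miR-301a-3p fell by 1.81. From catagen to telogen 0 rose and 2 fell, beside 10.7% of all miRNAs called, and the median was -0.06 against 0.001. The most abundant of these arms were miR-26b-5p (11780 TPM, log2 change 0.50 from May to September, adjusted p = 0.1), miR-126-3p (9692 TPM, 0.63, adjusted p = 0.0451) and miR-103-3p (5768 TPM, 0.44, adjusted p = 0.0197).

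The miRNAs whose log2 TMM levels ran most like each arm were found by Pearson's r over the 12 libraries among 299 others. The correlations are descriptive, as the libraries share phase and scaling. Closest to chi-miR-140-5p were miR-30e-5p (r = 0.91), miR-186-5p (0.88) and miR-30b-5p (0.88), and closest to chi-miR-140-3p were miR-26a-5p (0.91), miR-30e-3p (0.88) and miR-23b-3p (0.87). For chi-miR-455-5p they were miR-188-5p (0.89), miR-15a-5p (0.88) and miR-29a-3p (0.86). The likeness was weaker for chi-miR-455-3p, with miR-197-3p (0.63), miR-99a-5p (0.59) and miR-28-3p (0.59). The arms of miR-140 did not run together (r = -0.23), nor did those of miR-455 (r = -0.07), while both 5p arms had r = 0.65.

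Erythrocyte markers summed to 27.9 to 115 TPM in telogen and 5.41 to 26.4 in catagen, ranges that were barely apart. The male March library alone gave the 115 TPM. September (16.6 to 28.3 TPM) overlapped telogen and catagen, and the sum was not tested. The mesenchymal sum, on average mostly miR-143-3p, spanned 123500 to 146800 in telogen and 118300 to 148900 in catagen. The epithelial sum spanned 57930 to 96690 and 67760 to 94100. No erythrocyte, epithelial or mesenchymal marker arm was at 0 in any library. Their part in the changes of the 4 arms was not tested.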

How the data were processed

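Trimmed small RNA reads were mapped by the authors to the goat build CHIR_2.0. miRNAs were called with miREvo and mirDeep2 and quantified with Bowtie (version 0.12.9 in the submitters' processing notes). Per library, the deposited values of each miRNA are its raw count and its TPM. How reads matching several miRNAs were assigned, and which isoforms of an arm were counted, is not given in the sources used here.

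Counts of all 300 miRNAs with more than 5 CPM in at least 2 libraries were fitted in edgeR 4.0.16 (R 4.3.3) with TMM and quasi-likelihood tests, 4 phase groups in one fit. Called means a Benjamini-Hochberg adjusted p under 0.05 and at least 2-fold. Standard errors are the log2 fold change over the square root of F. Arm ratios, log2 of counts plus 1, were tested with limma 3.58.1 over 82 precursors. DESeq2 1.42.0, RLE, library totals, other filters, sex as a block and left-out libraries were alternatives. The tests were checked on simulated counts. Libraries of a month differed by more than sampling noise (chi-square over degrees of freedom 70 to 667), and none was merged.

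The 4 arms and the lists were chosen with earlier results of these data known. The rule for other named miRNAs was the 3 most alike in level to each arm, the 3 precursors nearest miR-140 in arm ratio, and the 3 most abundant of each list. The called members of the lists, and miR-145-5p, were named after their values were seen. Sequences and seeds were not analysed here. RefSeq host spans are of assembly ARS1.2 and not of the authors' build, hence without coordinates.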

Additional observations from a re-analysis of the deposited data

Results flagged for a closer look

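Of 22 sets of 4 libraries tested for a library far from the others, 1 was flagged, where chance flags about 1 in 20. It was chi-miR-140-5p in catagen, whose female December library stood at 103.4 TPM, while the nearest other catagen library had 76.7 TPM, a gap of 0.907 of the whole range of the group. Without this library the log2 difference of chi-miR-140-5p was -0.74 from May to catagen (adjusted p = 0.0552 by edgeR), 0.51 from catagen to telogen (adjusted p = 0.117) and 0.31 from September to catagen (adjusted p = 0.96), and none of these passed with it either.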

How the results depend on the processing

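Of 345 values recomputed under settings other than a left-out library, 313 kept their direction and side of the threshold. Scaling by library totals reversed chi-miR-140-3p from telogen to May (0.008), May to September (-0.028) and telogen to September (-0.02), chi-miR-455-3p from May to September (-0.13), May to catagen (-0.39) and telogen to September (-0.19), the sex difference of chi-miR-455-5p (0.019) and the interaction of chi-miR-455-3p (0.12). chi-miR-455-3p from May to catagen also reversed with a filter of 50 CPM (-0.019) and with only those groups fitted (-0.014), and the miR-455 arm ratio from September to catagen with edgeR (0.005). Totals made calls of chi-miR-140-5p and chi-miR-455-5p from May to catagen (-1.22, -1.05) and telogen to September (-1.11, -1.04), and raised the 6-month F of chi-miR-140-5p to 8.39. From catagen to telogen chi-miR-455-5p was called with RLE (1.03), totals (1.27), the 50 CPM filter (1.03), DESeq2 (1.03) and no minimum fold (0.94). No minimum fold also added chi-miR-140-3p from catagen to telogen (-0.54) and May to catagen (0.75), and from telogen to September chi-miR-140-5p (-0.81) and chi-miR-455-5p (-0.73). The miR-455 arm ratio passed from May to September (-0.69) and to catagen (-0.69) with the 50 CPM filter and from May to catagen with edgeR (-0.69), and no longer from telogen to September without a filter (-0.85). The 4-phase F of chi-miR-140-3p was lost with totals (0.84), RLE (4.00) and no filter (4.27). The added calls with no minimum fold follow from the setting's construction. With totals the median of all tested miRNAs shifted as well, by -0.52 from May to September, -0.55 from May to catagen and -0.32 from telogen to September. The cause of the other changes was not tested.

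With 1 library left out, 523 of 560 values kept direction and side by the same rule, which again misses crossings of 0.05 under 2-fold. chi-miR-140-5p ranged from -1.31 to -0.99 from May to September and from -1.05 to -0.66 from telogen to September, and its 4-phase F from 3.38 to 12.7. chi-miR-140-3p ranged from -0.30 to 0.024 from telogen to May, with an F of 3.77 to 8.06. chi-miR-455-5p ranged from 0.81 to 1.04 from catagen to telogen and from -0.19 to 0.14 by sex. chi-miR-455-3p ranged from -0.005 to 0.17 from catagen to telogen, -0.054 to 0.24 from May to catagen and -0.037 to 0.30 from telogen to September. The arm ratio of miR-140 ranged from -1.34 to -0.77 from telogen to September and -0.18 to 0.40 from September to catagen, and that of miR-455 from -1.16 to -0.54, -0.31 to 0.31, and -0.86 to -0.60 from May to catagen. The ratio of miR-140 to miR-455 stayed between -1.11 and -0.97. A lone May or September library is assumed to vary like the other groups. With 2 libraries each in May and September, the spread between libraries and not counting error limits the precision.

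The labels carry no replicate numbers that pair libraries across phases. Sex as a block changed no call of the 4 arms or of the arm ratios, though chi-miR-140-5p from May to catagen then passed on the adjusted p. Of all miRNAs, 7 were called from telogen to May, against 0 with only those groups fitted, 2 with the 50 CPM filter, 4 with totals, 12 with DESeq2, 13 with the likelihood-ratio test and 15 with the sex block. The 50 CPM filter, which tests fewer miRNAs, called 14 against 32 from catagen to telogen, 26 against 50 from May to catagen and 16 against 28 from telogen to September. Totals called 82 from May to catagen, and fitting only those groups 18 from telogen to September. From September to catagen RLE, the likelihood-ratio test and DESeq2 each called 1 against 0. With no minimum fold, the counts were 16, 102, 0, 105, 111 and 76 in the order telogen to May, May to September, September to catagen, catagen to telogen, May to catagen and telogen to September, where 55 were called at 2-fold from May to September.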
